A study of Atriplex lentiformis with 8 samples.

Results

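Jasmonate is a plant hormone made from the polyunsaturated fatty acids of plastid membranes and known in leaves for its part in wound and herbivore defence. A lipoxygenase oxygenates free linolenic acid, allene oxide synthase (AOS) and allene oxide cyclase (AOC) turn the product into oxophytodienoic acid (OPDA), and OPDA reductase 3 (OPR3) with beta-oxidation in the peroxisome completes jasmonic acid. JAR1 then joins jasmonic acid to isoleucine, and the conjugate is bound by COI1, an F-box protein that marks JAZ repressors for breakdown and so frees MYC-type transcription factors. The 9 genes described here are LOX1 (AT1G55020), LOX2 (AT3G45140), LOX3 (AT1G17420), AOS (AT5G42650), AOC2 (AT3G25770), AOC4 (AT1G13280), OPR3 (AT2G06050), JAR1 (AT2G46370) and COI1 (AT2G39940). Their members were found as the assembled transcripts whose best match in the TAIR10 Arabidopsis proteins was 1 of these 9 loci. That gave 29 transcripts of 46492, for 7 of the 9 genes. LOX3 and AOC2 were the best match of no transcript analysed here.

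The transcripts come from leaves of quailbush, Atriplex lentiformis, a shrub of saline soils. One group had days of 43 °C and nights of 30 °C in its own growth chamber and carries the label of an 18:3 lipid phenotype. The other had days of 23 °C and nights of 18 °C in a separate chamber and carries the label of a 16:3 lipid phenotype. Each group had 4 biological replicates, a 16-hour photoperiod and a stated 8 weeks, so chamber and temperature cannot be told apart. The table holds 1 FPKM value (fragments scaled for transcript length and sequencing depth) per transcript and temperature, taken as the authors' mean and so without an SD. Calls of higher or lower at 43 °C follow the authors' deposited table, at an adjusted p below 0.05. The standard errors (SE) given are approximate, back-calculated from the deposited p as if it came from a normal test. Gene names are those of the Arabidopsis match, which does not show orthology, and roles are known from Arabidopsis. In whole leaves, fewer cells of a type and less RNA per cell cannot be told apart.

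At 43 °C the main transcripts of both lipoxygenases were higher, and all OPR3 and JAR1 transcripts were lower. By the most abundant transcript of each gene, LOX1, LOX2, AOS and COI1 were higher at 43 °C and AOC4, OPR3 and JAR1 were lower. For COI1 that call depends on the form: the one with the higher mean was higher, the other was lower, and their sum was near equal at both temperatures. Over all transcripts 13 of the 29 were higher, 7 were lower and 9 did not pass. Of the 13, 8 were LOX2 forms from a single assembly component, which can share reads, so the 29 are not separate measurements. With 1 transcript per gene and component, an alternative chosen after seeing the data, 5 of 18 were higher and 5 lower. Over all transcripts taken that way, 7320 of 33523 were higher and 6520 lower. Over all transcripts deposited, 38.5% passed, 20.7% as higher and 17.8% as lower. Taking the most abundant transcript of each matched locus, 57.7% passed, 26.9% as higher and 30.9% as lower. The share passing grew with abundance. Of all transcripts with a mean of at least 5 FPKM, matched or not, 61.4% passed. Of the 15 such member transcripts 13 did. In the authors' deposited table the log2 changes had a median of 0.30 over the 29 transcripts and 0.10 over all transcripts.

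**Figure D1:**
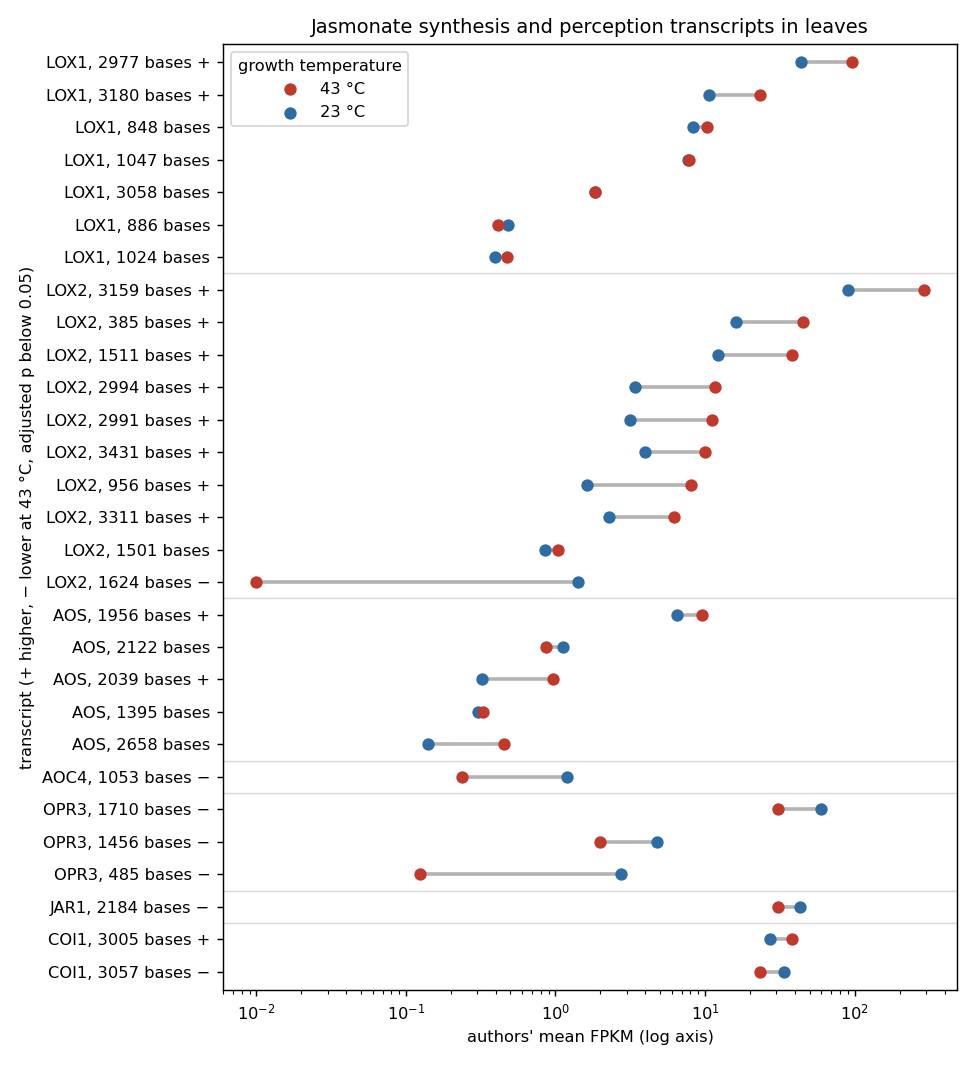
Authors' mean FPKM of each of the 29 transcripts at 43 °C and 23 °C on a log axis, grouped by gene and labelled by transcript length, with + and − marking transcripts higher or lower at 43 °C at an adjusted p below 0.05. LOX2 has 8 transcripts marked as higher at 43 °C, while all 3 OPR3 transcripts are marked as lower.

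LOX2, the plastid lipoxygenase that supplies much of the jasmonate of wounded Arabidopsis leaves, was the most abundant of the genes at both temperatures. Its main transcript, of 3159 bases, stood at 292 FPKM at 43 °C, against 90.7 FPKM at 23 °C, a ratio of 3.22. The log2 change in the authors' deposited table was 1.68 (approximate SE 0.086, adjusted p = 9.35e-83). This transcript lay above 99.0% of all matched transcripts in mean FPKM and made up 68.9% of the LOX2 sum at 43 °C and 66.8% at 23 °C. Of the 10 LOX2 transcripts 8 were higher, 1 was lower and 1 did not pass.

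The other LOX2 forms called higher moved by similar amounts. A 385-base fragment had 45.1 FPKM at 43 °C, against 16.2 FPKM at 23 °C, and a 1511-base form 38.4 FPKM at 43 °C, against 12.2 FPKM at 23 °C. The 5 other forms called higher, from 956 to 3431 bases long, had 6.23 to 11.7 FPKM at 43 °C and 1.62 to 3.98 FPKM at 23 °C. Across these 8 forms the log2 change in the authors' deposited table ran from 1.31 to 2.30. The largest was that of the 956-base form (approximate SE 0.82), which matched LOX2 with an E value of 1e-15. The call of the 2991-base form, at 11.1 FPKM at 43 °C against 3.16 FPKM at 23 °C, ended after median centring, explained below. At an adjusted p threshold of 0.01 the calls of the 956-base and 2991-base forms ended. The 8 forms carry the name of a single assembly component and can share reads, so they do not count as separate measurements of the gene. The form called lower, of 1624 bases, came from that component too, with 0.01 FPKM at 43 °C, against 1.425 FPKM at 23 °C. A 1501-base transcript from another component did not pass at 1.04 FPKM at 43 °C, against 0.855 FPKM at 23 °C. Summed over all forms LOX2 reached 423 FPKM at 43 °C, against 136 FPKM at 23 °C, a log2 ratio of 1.64.

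LOX1 belongs to the lipoxygenases that add oxygen at another carbon of the fatty acid and, in Arabidopsis, do not feed jasmonate synthesis. Its main transcript, of 2977 bases, had 96.9 FPKM at 43 °C, against 44.1 FPKM at 23 °C, with a log2 change of 1.13 (approximate SE 0.072, adjusted p = 5.43e-53) in the authors' deposited table. The 3180-base form from the same component moved alike, at 23.2 FPKM at 43 °C, against 10.7 FPKM at 23 °C. A 3058-base form of that component was listed at 1.835 FPKM at both temperatures.

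The remaining 4 LOX1 transcripts, of 848 to 1047 bases, did not pass. The 848-base one had 10.3 FPKM at 43 °C, against 8.325 FPKM at 23 °C, and the 1047-base one 7.79 FPKM at 43 °C, against 7.735 FPKM at 23 °C. For the 848-base transcript the approximate 95% interval of the log2 change ran from -0.21 to 0.81, below the 1.13 of the main transcript. These 2 fragments share the number of their assembly component with a 949-base fragment whose best match was LOX5, another lipoxygenase of the same kind. That fragment was higher, with 12.35 FPKM at 43 °C, against 8.36 FPKM at 23 °C (adjusted p = 0.034 in the table the authors deposited), a call that ended after median centring. The LOX1 sum was 141 FPKM at 43 °C, against 73.6 FPKM at 23 °C, a log2 ratio of 0.94.

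AOS, the cytochrome P450 that commits the lipoxygenase product to jasmonate, was far less abundant than LOX2. Its main transcript, of 1956 bases, had 9.615 FPKM at 43 °C, against 6.475 FPKM at 23 °C. The log2 change in the authors' deposited table was 0.56 (approximate SE 0.20, adjusted p = 0.018). The call ended at an adjusted p threshold of 0.01, and also after median centring. The other 4 AOS transcripts had means under 1 FPKM, and 1 of them, of 2039 bases, was higher at 0.96 FPKM at 43 °C, against 0.325 FPKM at 23 °C. The AOS sum was 12.2 FPKM at 43 °C, against 8.36 FPKM at 23 °C.

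The allene oxide cyclases, which set the stereochemistry of OPDA, were represented by a single rare transcript. It matched AOC4 with an E value of 1.5e-30, was 1053 bases long and had 0.2375 FPKM at 43 °C, against 1.2 FPKM at 23 °C. The log2 change in the authors' deposited table was -2.39 (approximate SE 0.68, adjusted p = 0.0019). Its mean lay above 26.0% of matched transcripts, so its fold rests on values near the low end of the table, and no transcript matched AOC1 or AOC3 either.

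OPR3, the peroxisomal reductase specific to the jasmonate precursor, was lower in all 3 of its transcripts. The main one, of 1710 bases, had 30.85 FPKM at 43 °C, against 59.4 FPKM at 23 °C, with a log2 change of -0.96 (approximate SE 0.087, adjusted p = 2.98e-26) in the authors' deposited table. The 1456-base transcript from another component had 1.99 FPKM at 43 °C, against 4.74 FPKM at 23 °C. A 485-base fragment had 0.125 FPKM at 43 °C, against 2.735 FPKM at 23 °C. That short fragment came from a component whose other 4 transcripts, of 4716 to 5277 bases, matched a xanthine/uracil permease (AT4G38050). Of these, 1 was higher, at 4.83 FPKM at 43 °C, against 0.15 FPKM at 23 °C, and 1 was lower, at 0.04 FPKM at 43 °C, against 1.83 FPKM at 23 °C. The OPR3 sum was 33.0 FPKM at 43 °C, against 66.9 FPKM at 23 °C, a log2 ratio of -1.02, and -0.97 without the short fragment.

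JAR1, the enzyme that conjugates jasmonic acid to isoleucine, had a single transcript, of 2184 bases. It stood at 30.9 FPKM at 43 °C, against 43.0 FPKM at 23 °C. The log2 change in the authors' deposited table was -0.48 (approximate SE 0.096, adjusted p = 4.12e-06). With equal totals of the FPKM columns, explained below, the log2 ratio was -0.22 and the transcript was still called lower.

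COI1, the receptor subunit, had 2 long transcripts that moved in opposite directions. The 3005-base form had 38.2 FPKM at 43 °C, against 27.4 FPKM at 23 °C, with a log2 change of 0.47 (approximate SE 0.084, adjusted p = 1.47e-07) in the authors' deposited table. The 3057-base form had 23.25 FPKM at 43 °C, against 33.9 FPKM at 23 °C, with a log2 change of -0.55 (approximate SE 0.079, adjusted p = 3.71e-11) in the authors' deposited table. Their sum was 61.5 FPKM at 43 °C, against 61.3 FPKM at 23 °C. What differed was the split: the 3005-base form made up 62.2% of the sum at 43 °C, against 44.7% at 23 °C. Both forms come from 1 assembly component and can share reads. Another transcript of that component, of 1267 bases, matched a protein of unknown function (AT2G35585) and was lower, at 14.5 FPKM at 43 °C, against 24.8 FPKM at 23 °C.

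**Figure D2:**
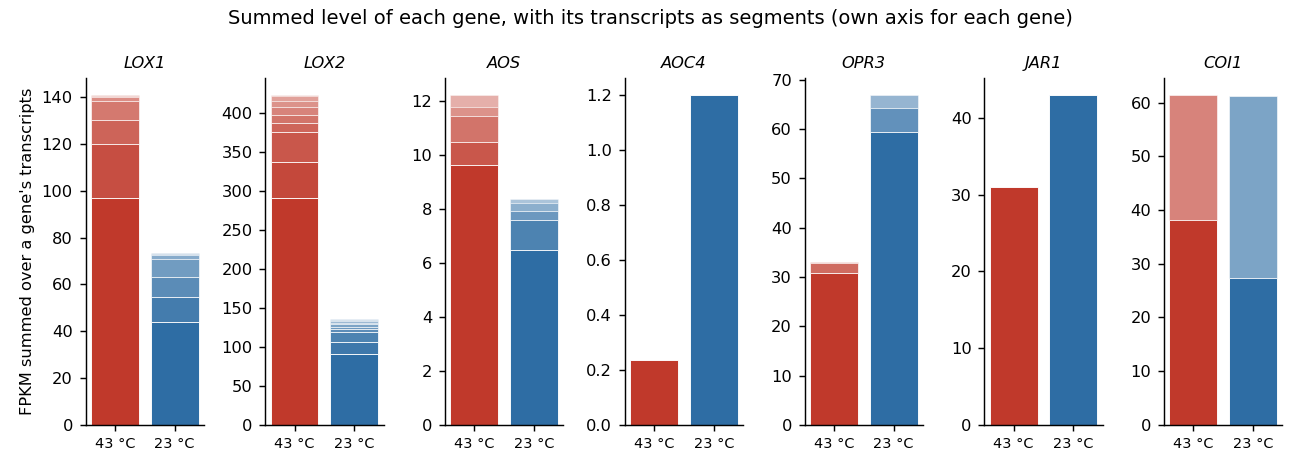
FPKM summed over the transcripts of each gene at 43 °C (left bars) and 23 °C (right bars), each gene on its own axis from 0, with transcripts as segments. The LOX2 bar reaches 423 FPKM at 43 °C against 136 FPKM at 23 °C, and the COI1 bars are near equal in height with a different split.

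The order of the genes by summed level differed between temperatures below the lipoxygenases. At 43 °C it ran LOX2, LOX1, COI1, OPR3, JAR1, AOS and AOC4, and at 23 °C LOX2, LOX1, OPR3, COI1, JAR1, AOS and AOC4. OPR3 and JAR1 lay next to each other at 43 °C with 33.0 and 30.9 FPKM, and OPR3 and COI1 at 23 °C with 66.9 and 61.3 FPKM. No spread between libraries was available to test such neighbours. Sums also count a gene more than once where fragments come from different stretches of 1 transcript.

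**Figure D3:**
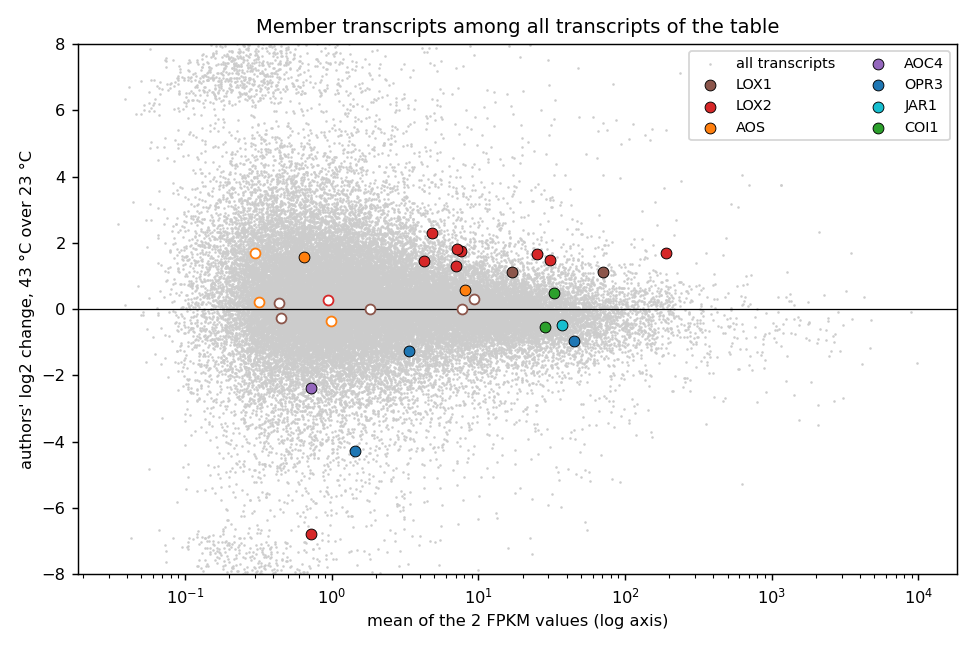
The authors' log2 change (43 °C over 23 °C) against the mean of the 2 FPKM values on a log axis, for all transcripts with changes within the axis limits (grey) and the 29 member transcripts (coloured by gene, filled where the adjusted p was below 0.05, white where not). The main transcript of LOX2, at 1.68, is the member farthest to the right.

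The FPKM columns did not have equal totals. Weighted by transcript length in kilobases, their totals were 909555 at 43 °C, against 1084419 at 23 °C, and equal totals would add 0.25 to every log2 change. Under that scaling, with calls approximated, the members had again 13 transcripts higher and 7 lower, and after median centring, which takes the median change of 0.10 off every log2 change, 11 and 7. Over all 46492 transcripts, 12986 were higher and 5997 lower with equal totals, and 8529 and 9412 after median centring. The 2 LOX1 transcripts with a p of 1 could not be called under either scaling.

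Beyond the 9 genes, 69 further Arabidopsis genes of jasmonate synthesis, turnover and signalling were listed by role, and 42 of them had 77 transcripts. Of these transcripts 24 were higher, 23 were lower and 30 did not pass, and the median of the authors' log2 changes was 0.24. With equal totals the split was 38 higher and 18 lower. Over all 46492 transcripts, 12986 were higher and 5997 lower under that scaling, so that 68.4% of all calls were higher. By the most abundant transcript of each gene 16 were higher, 15 lower and 11 did not pass, and with equal totals 25 were higher and 11 lower. The counts by role below are by the most abundant transcript and were not tested for differences between roles. Those without rescaling can be set against the 26.9% higher and 30.9% lower over all matched loci. The shares over all matched loci with equal totals were not computed, so role counts under that scaling have no such comparison.

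Upstream of the lipoxygenases, 3 of 4 matched lipase and export genes were higher and none was lower, and with equal totals all 4 were higher. AT1G02660, listed as an alpha/beta-hydrolase and known in Arabidopsis as a plastid lipase, had 24.5 FPKM at 43 °C, against 18.5 FPKM at 23 °C. DAD1, a lipase that frees linolenic acid in Arabidopsis flowers, was rare at 1.09 FPKM at 43 °C, against 0.125 FPKM at 23 °C. AT3G61680, also listed as an alpha/beta-hydrolase, was rarer still, at 0.3625 FPKM at 43 °C, against 0.0325 FPKM at 23 °C. The higher calls of DAD1 and AT3G61680 thus rest on values near the low end of the table. AT1G70480, listed as a DUF220 protein, did not pass at 7.48 FPKM at 43 °C, against 6.20 FPKM at 23 °C, and was called higher with equal totals.

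Of the 4 matched genes in the list of other lipoxygenases, cyclases and reductases, 1 was higher, 1 was lower and 2 did not pass, and with equal totals 3 were higher and 1 was lower. After median centring 0 were higher, 1 was lower and 3 did not pass. LOX4, a plastid form of the jasmonate kind, did not pass at 30.1 FPKM at 43 °C, against 26.3 FPKM at 23 °C, though it was called higher with equal totals, as was the main transcript of LOX6, at 18.9 FPKM at 43 °C against 18.1 FPKM at 23 °C. A rare LOX6 fragment of 1040 bases was called higher, with 1.505 FPKM at 43 °C, against 0.215 FPKM at 23 °C (log2 change 2.69, approximate SE 0.73, adjusted p = 0.00102 in the authors' deposited table). LOX5 was the gene counted as higher, through the fragment described above, while its 2 long transcripts, of 3142 and 3300 bases, were lower. That pair had 4.34 and 2.17 FPKM at 43 °C against 8.83 and 5.59 FPKM at 23 °C, with log2 changes of -1.03 and -1.38. The LOX5 sum was 22.2 FPKM at 43 °C, against 25.6 FPKM at 23 °C. Over the 5 matched lipoxygenases and their 25 transcripts, LOX2 made up 66.3% of the summed FPKM at 43 °C and 48.4% at 23 °C. HPL1, a hydroperoxide lyase that draws on the same lipoxygenase product as AOS to make leaf volatiles, was higher at 62.3 FPKM at 43 °C, against 24.2 FPKM at 23 °C (log2 change 1.35, approximate SE 0.079, adjusted p = 1.89e-63 in the authors' deposited table). OPR2, a reductase with a minor role in jasmonate synthesis, had a 2951-base transcript at 0.87 FPKM at 43 °C, against 5.45 FPKM at 23 °C, called lower, and a 1482-base one that did not pass at 3.15 FPKM at 43 °C, against 2.13 FPKM at 23 °C.

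Of 7 matched peroxisomal genes for import, activation and beta-oxidation 5 were lower and 2 were higher, with equal totals 4 and 2, and their transcripts summed to 317 FPKM at 43 °C, against 548 FPKM at 23 °C. ACX1, the acyl-CoA oxidase that acts in jasmonate synthesis in Arabidopsis, had 92.4 FPKM at 43 °C, against 192 FPKM at 23 °C (log2 change -1.06, approximate SE 0.071, adjusted p = 2.91e-48 in the authors' deposited table). KAT2, the thiolase of the same spiral, had 79.35 FPKM at 43 °C, against 149 FPKM at 23 °C by its main transcript. ACX2, an oxidase of long-chain substrates, was higher, at 14.1 FPKM at 43 °C, against 5.33 FPKM at 23 °C. AIM1, a multifunctional enzyme of beta-oxidation, was higher at 20.0 FPKM at 43 °C, against 17.1 FPKM at 23 °C, a call that ended after median centring. These enzymes also break down other fatty acids, so their levels are not a readout of jasmonate alone.

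Among 9 matched turnover genes 3 were higher, 2 were lower and 4 did not pass. With equal totals 6 were higher, 1 was lower and 2 did not pass, the added ones being ST2A, CYP94B3 and CYP94C1. AT5G05600, listed as an oxygenase of the 2OG and Fe(II) type and known in Arabidopsis as a jasmonate hydroxylase, had 15.1 FPKM at 43 °C, against 3.38 FPKM at 23 °C. ILL6, an amidohydrolase that splits the isoleucine conjugate, had 10.955 FPKM at 43 °C, against 4.325 FPKM at 23 °C. JMT, which makes methyl jasmonate, was lower, at 4.19 FPKM at 43 °C, against 10.6 FPKM at 23 °C by its main transcript. CYP94B1, an oxidase of the conjugate, was lower at 4.25 FPKM at 43 °C, against 6.91 FPKM at 23 °C, which no longer passed with equal totals. The main transcript of ST2A, a sulfotransferase of hydroxylated jasmonate, did not pass at 17.9 FPKM at 43 °C, against 13.1 FPKM at 23 °C. Of the 8 ST2A transcripts 3 were higher and 5 did not pass, and they summed to 42.6 FPKM at 43 °C, against 27.0 FPKM at 23 °C. The call of the 1277-base one ended after median centring. CYP94B3 and CYP94C1, oxidases of the conjugate like CYP94B1, did not pass by their main transcripts. CYP94B3 had 1.875 FPKM at 43 °C, against 1.05 FPKM at 23 °C, and CYP94C1 had 2.51 FPKM at 43 °C, against 1.04 FPKM at 23 °C. The other 2 CYP94C1 transcripts were called higher, and 1 of those calls ended after median centring.

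COI1 works in a ubiquitin ligase with SKP-type adaptors, cullin and RBX1, and 3 of these 4 partners were lower by the main transcript, or 2 lower and 1 higher with equal totals. CUL1, the cullin scaffold, had 42.6 FPKM at 43 °C, against 73.2 FPKM at 23 °C by its main transcript (log2 change -0.79, approximate SE 0.072, adjusted p = 4.42e-26 in the authors' deposited table). Of its 5 transcripts 3 were lower, 1 was higher and 1 did not pass, and the higher call ended after median centring. RBX1 was lower by its 878-base transcript, at 31.5 FPKM at 43 °C, against 55.5 FPKM at 23 °C. Its 386-base transcript did not pass at 40.9 FPKM at 43 °C, against 34.9 FPKM at 23 °C, and was called higher with equal totals. ASK1, an adaptor, was lower at 124 FPKM at 43 °C, against 152 FPKM at 23 °C, a call lost with equal totals. ASK2 did not pass at 158 FPKM at 43 °C, against 161 FPKM at 23 °C, and was called higher with equal totals. The ligase serves many other F-box proteins besides COI1.

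On the repressor side, 4 of the 6 matched genes were higher, 1 was lower and 1 did not pass, and both scalings gave those counts too. JAZ1, a repressor that COI1 removes, was the most abundant of the listed repressors, with 410 FPKM at 43 °C, against 320 FPKM at 23 °C by its main transcript (log2 change 0.35, approximate SE 0.067, adjusted p = 1.36e-06 in the authors' deposited table). NINJA, the adaptor that links JAZ proteins to corepressors, had 18.9 FPKM at 43 °C, against 14.6 FPKM at 23 °C. TPL, the corepressor, had a 4233-base transcript at 15.2 FPKM at 43 °C, against 48.5 FPKM at 23 °C, called lower, and a 4266-base one that did not pass at 25.1 FPKM at 43 °C, against 25.4 FPKM at 23 °C, but was called higher with equal totals. JAZ8 did not pass at 0.78 FPKM at 43 °C, against 0.3925 FPKM at 23 °C.

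Of 6 matched genes for transcription factors and the mediator 2 were higher, 3 were lower and 1 did not pass, and with equal totals 3 were higher and 2 were lower. MYC2, the transcription factor that leads the jasmonate response, had a single transcript at 89.9 FPKM at 43 °C, against 35.9 FPKM at 23 °C (log2 change 1.32, approximate SE 0.077, adjusted p = 2.37e-63 in the authors' deposited table). MED25, listed as PFT1, a mediator subunit that MYC2 binds, was lower at 14.2 FPKM at 43 °C, against 21.7 FPKM at 23 °C. ERF1, a factor that responds to jasmonate together with ethylene, was lower in both of its transcripts. Its main one had 1.505 FPKM at 43 °C, against 13.96 FPKM at 23 °C (log2 change -3.24, approximate SE 0.29, adjusted p = 9.92e-27 in the authors' deposited table), and the other 0.165 FPKM at 43 °C, against 4.64 FPKM at 23 °C. The bHLH factors AT4G16430 and AT1G01260, which oppose MYC2 in Arabidopsis, differed in direction by their main transcripts. AT4G16430 was higher at 11.96 FPKM at 43 °C, against 9.41 FPKM at 23 °C, which ended after median centring. AT1G01260 was lower at 12.7 FPKM at 43 °C, against 15.7 FPKM at 23 °C, which ended with equal totals. The related AT2G46510 did not pass at 17.7 FPKM at 43 °C, against 17.1 FPKM at 23 °C, but was called higher with equal totals. Of 7 output genes of the response, such as VSP2 and PDF1.2, CLH1 alone was matched, and it did not pass at 7.30 FPKM at 43 °C, against 5.47 FPKM at 23 °C, but was called higher with equal totals.

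**Figure D4:**
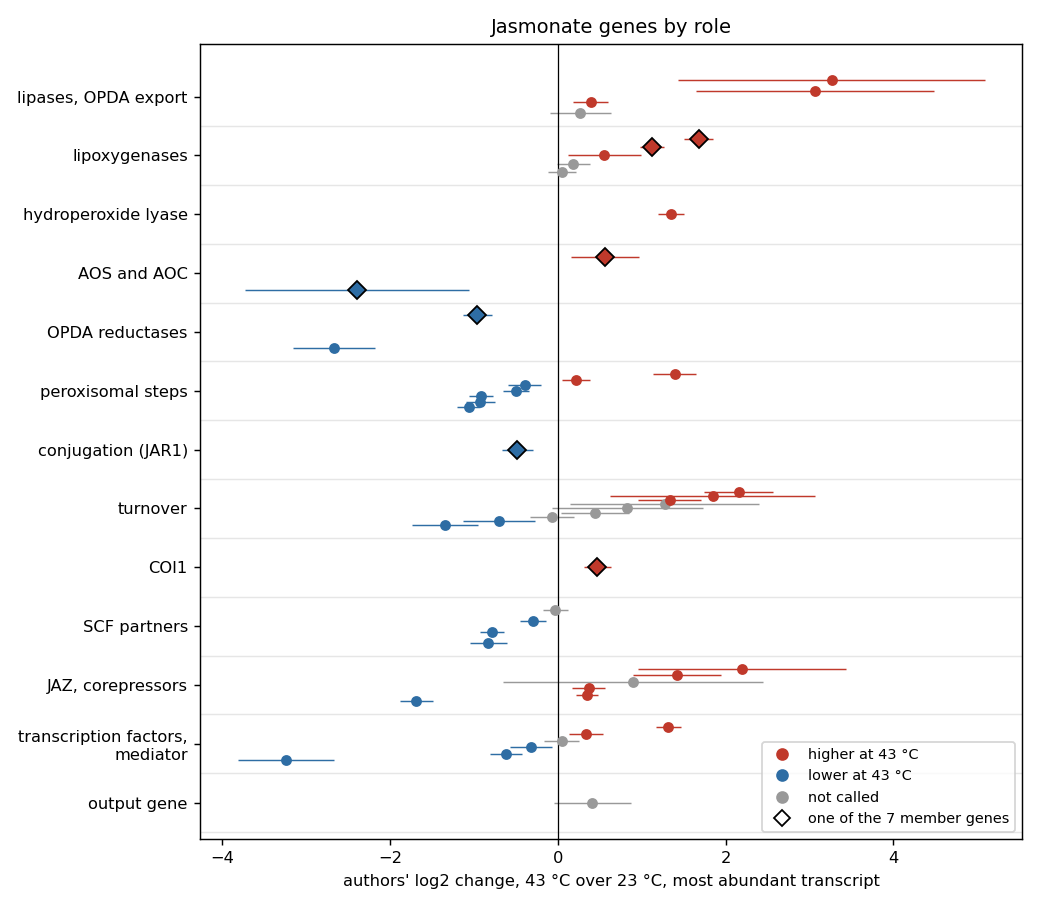
The authors' log2 change (43 °C over 23 °C) of the most abundant transcript of each gene, by role, with approximate 95% intervals derived from the authors' p, red for higher, blue for lower and grey for not passing. Diamonds mark the 7 member genes, with LOX2 at 1.68 and OPR3 at -0.96.

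Leaf markers were present and moved between the groups. All 4 matched mesophyll genes, such as the light-harvesting gene LHCB1.3, were lower by the main transcript (3 of 4 with equal totals). Their transcripts summed to 11516 FPKM at 43 °C, against 22705 FPKM at 23 °C. Of these 12 transcripts 9 were lower, 1 was higher and 2 did not pass. The higher one, a 2181-base form of the mesophyll gene RCA, had 414 FPKM at 43 °C, against 267 FPKM at 23 °C. The 4 phloem and xylem genes summed to 100.1 FPKM at 43 °C, against 244 FPKM at 23 °C, with 2 lower and 2 higher by the main transcript. Most of that sum was the phloem sucrose transporter SUC2, lower at 55.3 FPKM at 43 °C, against 207 FPKM at 23 °C. APL was lower too, at 10.2 FPKM at 43 °C, against 17.3 FPKM at 23 °C. IRX1 was higher, at 6.955 FPKM at 43 °C, against 3.01 FPKM at 23 °C. IRX3 was higher at 6.395 FPKM at 43 °C, against 3.62 FPKM at 23 °C, a call that ended after median centring. The 3 matched epidermal genes summed to 97.8 FPKM at 43 °C, against 74.2 FPKM at 23 °C, with 1 higher, and the 4 guard cell genes to 23.3 FPKM at 43 °C, against 27.0 FPKM at 23 °C, also with 1 higher. No marker transcript was listed at 0. The part of leaf composition in the values above was not tested.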

How the data were processed

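Leaf RNA in 8 samples, 4 per temperature, was sequenced. The submitters' processing notes name CASAVA 1.8.2 and Bowtie2 without saying what each did, and the sources used here do not give how the authors assembled, counted and tested the transcripts. Per the file headers, the deposited columns are FPKM at each temperature, the authors' log2 fold change, a p-value and an FDR, and the BLASTx E value. The FPKM values were all multiples of 0.0025, which fits an average of 4 values with 2 decimals. Single libraries were not analysed here, so depth is unknown, the planned test on libraries was not run, and it is unknown if the deposited p-values reflect differences among plants. The deposited FDR equalled a Benjamini-Hochberg adjustment over all 46492 transcripts within 3.2e-07. Every transcript had a value above 0 for at least 1 temperature, so transcripts may have been selected before deposit. Approximate standard errors, shifted calls and sums used Python 3.11.15 and scipy 1.17.1, and the functions were tested on simulated data. Named genes were all members, and from each other list up to 2 called higher, 2 called lower and 1 not called, most abundant first; further genes and transcripts, such as the long LOX5 forms, LOX6, CYP94B3, CYP94C1, ERF1, the second OPR2 and TPL transcripts and those sharing a component with a member, were chosen after their values were seen. No genes were ranked by likeness of pattern, since 2 means give a single ratio. Members and lists were chosen with earlier results of these data known.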

Additional observations from a re-analysis of the deposited data

How the results depend on the processing

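No paired analysis was possible because the table holds 1 value per temperature, and leaving out replicates was not run for the same reason. With a minimum mean of 5 FPKM, 3 of 15 member transcripts were lower (7 of 29 without a minimum). Of the other jasmonate transcripts 15 of 47 were higher (24 of 77 without). Over all transcripts with that minimum, 3683 of 13422 were higher and 4915 were lower. Requiring a fold change of at least 2 left 11 member transcripts higher and 4 lower of 29. By gene it left 2 members higher (LOX1 and LOX2) and 1 lower (AOC4). Of 77 other jasmonate transcripts 16 were then higher and 11 lower, and of all 46492 transcripts 7056 and 4914. Taking 1 transcript per gene and assembly component, an alternative chosen after seeing the data, left 18 member transcripts, 5 higher and 5 lower. Fewer were higher since the LOX2 forms share a component. Over all transcripts taken this way, 7320 of 33523 were higher and 6520 were lower. With equal totals 38 of 77 other jasmonate transcripts were higher, beside 12986 of 46492 over all transcripts. Summed FPKM then gave log2 ratios of 1.89 for LOX2, 1.19 for LOX1, 0.26 for COI1, -0.22 for JAR1 and -0.77 for OPR3. The most abundant transcript in place of the sum gave 0.48 for COI1 and 1.14 for LOX1. AOC4 had a log2 ratio of -0.83 with a pseudocount of 1 and -0.24 with a pseudocount of 5, as its values are small beside them. The other counts stayed within 1.5 times. The other ratios shifted from their main value by less than a margin set for each gene. That margin was the distance from the main transcript's log2 change to either end of its approximate 95% interval. AOC4 gave no value with a minimum mean of 1 FPKM or an E value of at most 1e-30, nor COI1 without components shared with another locus.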

Other observations

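Other genes with a TIFY domain, the domain that JAZ repressors share, were looked at after their values had been seen. PPD2, a leaf growth regulator of this family in Arabidopsis, had 4 transcripts, of which 3 were higher, and summed to 24.5 FPKM at 43 °C, against 13.6 FPKM at 23 °C. ZML1, a GATA-type factor with the domain, had 6 transcripts, of which 2 were lower, and summed to 11.9 FPKM at 43 °C, against 16.5 FPKM at 23 °C. A lower ZML1 form was listed at 0 FPKM at 43 °C, against 0.89 FPKM at 23 °C. The forms of each of these genes come from a single assembly component and can share reads, so they are not separate measurements. Over all transcripts deposited, 20.7% were higher and 17.8% lower. The single transcripts of TIFY8 (6.055 FPKM at 43 °C, against 8.19 FPKM at 23 °C) and ZIM (16.0 FPKM at 43 °C, against 19.0 FPKM at 23 °C) did not pass.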
